A study of Mus musculus with 4 samples.

Results

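Axon guidance ligands and receptors were followed in the embryonic mouse retina as the semaphorin, plexin, neuropilin, ephrin, Eph receptor, Slit, Robo, netrin, Unc5 and Dcc genes. Members were chosen by gene symbol, and 66 of the 18471 genes in the count table matched. Unc50 shares only its letters with the netrin receptors and was set aside, with a log2 fold change of -0.04 (adjusted p = 0.717, edgeR quasi-likelihood test with Benjamini-Hochberg adjustment). The other 65 genes, 34 for ligands and 31 for receptors, all passed the filter on low counts.

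RNA sequencing was done on whole retinas of genotyped embryos at embryonic day 19 (E19), each library from an individual embryo. The control group was wild-type, and the group labelled Foxn3KO carried the allele C57BL/6NJ-Foxn3em1(IMPC)Bay, which lacks exon 3 of Foxn3, a gene for a forkhead transcription factor. Each group had 2 libraries, so p-values rest on the spread between these few embryos and on variance shared across genes. The study asks about a network of transcription factors, Foxn3 among them, that controls primary cilia in the retina.

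Guidance ligands are secreted or held on cell surfaces and steer growing axons by attraction or repulsion. Semaphorins act through plexins, with neuropilins as co-receptors for most of the secreted class, ephrins act through Eph receptors, Slits through Robos, and netrins through Dcc and Unc5 proteins. In the retina these systems lead ganglion cell axons to the optic disc, sort them at the optic chiasm, set up the map in the brain and keep neurites in their layers.

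Total counts ranged from 22543531 to 29360129 per library. Foxn3 itself, whose exon 3 is deleted, had 98.7 ± 1.55 CPM (counts scaled to library size; SD, n = 2) in wild-type and 144 ± 0.108 CPM (SD, n = 2) in the libraries labelled Foxn3KO, so its gene-level count does not mark the deletion, and Foxn3KO here means the libraries with that label. Wild-type replicate 1 differed from the other 3 libraries in sex-linked RNA, with 83073 counts of Xist and 0 of Ddx3y. All 19 genes of a list of core retinal markers were detected, and their summed level was 4116 and 4333 CPM in wild-type and 4277 and 4306 CPM in Foxn3KO. In whole tissue, fewer cells of a type and less RNA per cell cannot be told apart.

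Of the 65 members, 25 differed between the genotypes at an adjusted p under 0.05 (38.5%), 10 of them higher and 15 lower in Foxn3KO. The background over all 17300 tested genes was 21.9%, with 12.3% higher and 9.66% lower. Most members are well expressed, and above a mean level of 10 CPM the share was 22 of 53 members (41.5%) against a background of 28.3%. The changes were small: 21 of the 25 were under 1.5-fold, and only Slit3 and Sema3c reached 2-fold. The median log2 fold change of the members was -0.06 and their median absolute change 0.16, beside 0.00 and 0.15 over all tested genes. The libraries of the genotypes did not overlap in 44 of the 65 members, against a background of 60.4%, and in all 25 that passed the test. The 25 were picked by a small p with 2 libraries a group, so their lack of overlap is not separate support. Ligand genes counted 5 higher and 9 lower of 34, receptor genes 5 higher and 6 lower of 31.

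**Figure D1:**
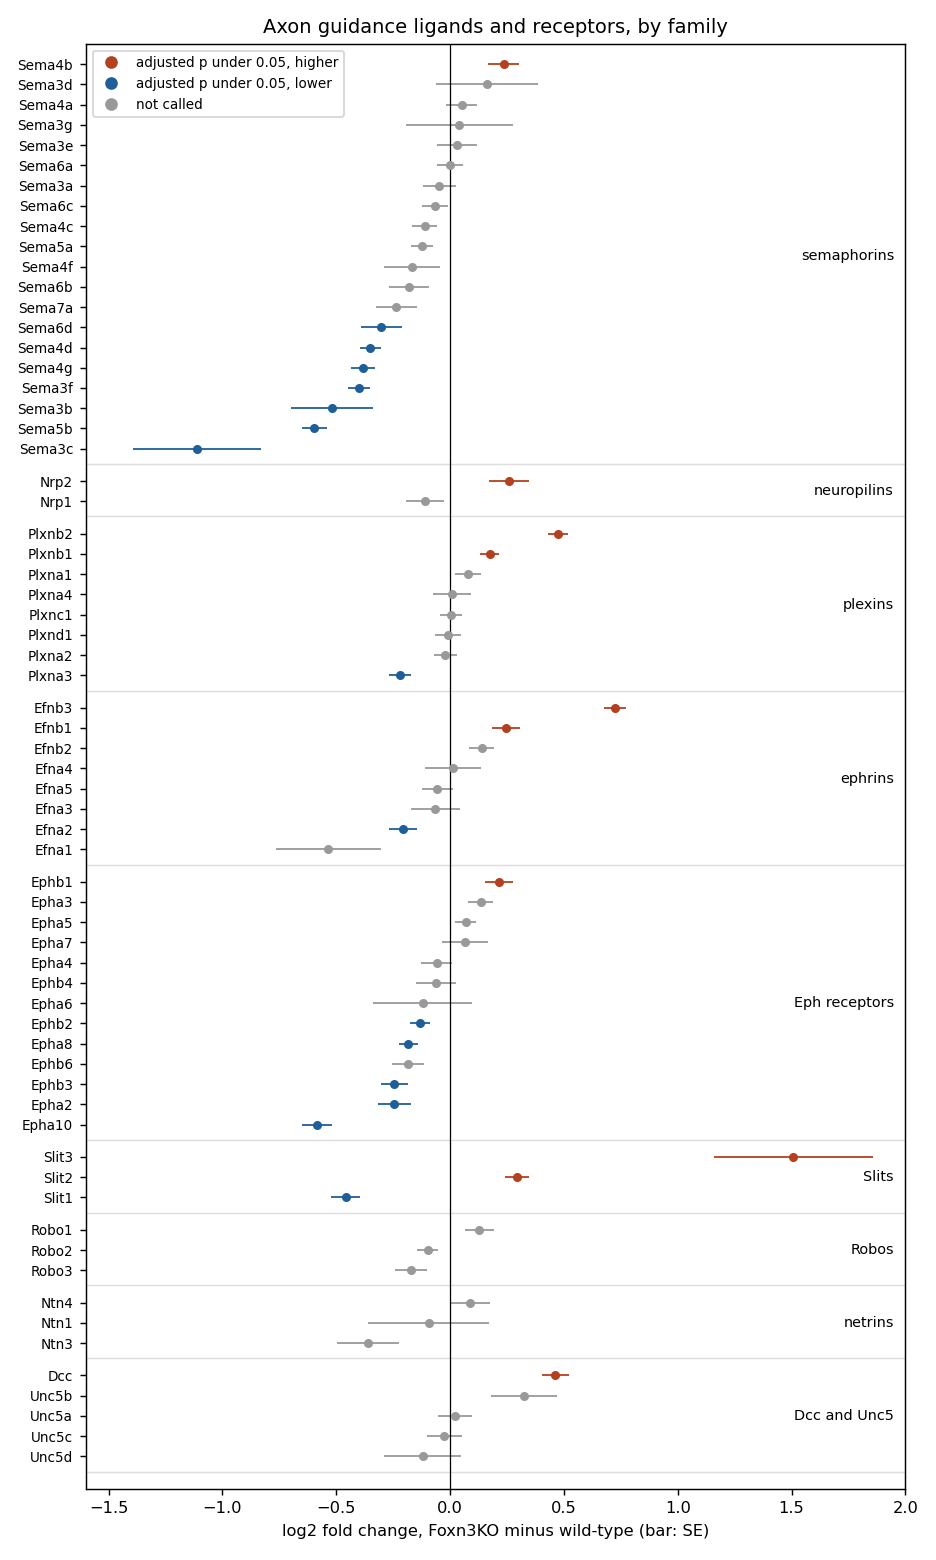
Log2 fold change of each of the 65 members, Foxn3KO minus wild-type, on the horizontal axis, grouped by family, with bars for the standard error. Semaphorins that passed the test lie to the left of 0 except Sema4b, while the B ephrins and B plexins that passed lie to the right.

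Semaphorins fell more often than they rose: 7 of 20 were lower and 1 was higher (40%, beside 21.9% of all tested genes). The median log2 fold change of the family was -0.15. Summed over the family, the deposited FPKM (a level scaled to library size and gene length, called level per length here) was 141 and 147 in wild-type and 123 and 124 in Foxn3KO. Most of the difference lay in classes 3, 4 and 5, in a few genes of each.

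Sema3f, a secreted semaphorin that repels axons through neuropilin-2 and A plexins, had 135 and 133 CPM in wild-type and 103 and 100 CPM in Foxn3KO. Both Foxn3KO libraries lay below both wild-type libraries, and each pair of replicates was tight. The log2 fold change was -0.40 (SE 0.046, edgeR adjusted p = 4.49e-06). Sema3f made up 78.6% of the class 3 level per length, and that summed level was 31.9 and 32.3 FPKM against 25.4 and 25.2 FPKM.

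Sema3c and Sema3b, secreted relatives of Sema3f, were far less abundant and less even between embryos. Sema3c had 57 and 107 counts in wild-type and 46 and 29 in Foxn3KO, a log2 fold change of -1.11 (SE 0.28, edgeR adjusted p = 0.00829). Sema3b had 5.28 and 7.77 CPM against 4.70 and 4.42 CPM, with a log2 fold change of -0.52 (edgeR adjusted p = 0.0486). In both genes wild-type replicate 2 was the highest library, and without it the log2 fold changes were -0.66 (edgeR adjusted p = 0.133) and -0.21 (edgeR adjusted p = 0.506). The summed level of 11 pigment epithelium markers was also highest in that library, at 80.6 CPM beside 54.7 CPM in the other wild-type library. It was 45.6 and 45.2 CPM in Foxn3KO. Of the 9 markers that could be tested, 3 were lower in Foxn3KO (33.3%, beside 21.9% of all tested genes that passed). The part of these markers in the 2 semaphorins was not tested. The other class 3 genes, Sema3a, Sema3d, Sema3e and Sema3g, had log2 fold changes from -0.05 to 0.16, and none passed.

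Sema5b showed the steepest fall among the abundant semaphorins. This transmembrane protein keeps retinal neurites out of the neuroblastic layer together with Sema5a. Its level was 72.7 and 75.8 CPM in wild-type and 50.3 and 47.9 CPM in Foxn3KO, with no overlap. The log2 fold change was -0.60 (SE 0.056, edgeR adjusted p = 2.84e-07), or 1.51-fold lower. Sema5a had 112 and 115 CPM against 102 and 107 CPM, a log2 fold change of -0.12 with a 95% interval from -0.22 to -0.02 (edgeR adjusted p = 0.077). Plxna3, a receptor of these proteins and of Sema3f complexes, had 103 and 108 CPM against 92.5 and 89.0 CPM. This was a log2 fold change of -0.22 (edgeR adjusted p = 0.00377).

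The transmembrane class 4 semaphorins did not move together. Sema4d, the ligand of plexin-B1, had 133 CPM in both wild-type libraries and 103 and 105 CPM in Foxn3KO. It fell by 0.35 on the log2 scale (SE 0.046, edgeR adjusted p = 2.03e-05). Sema4g had 111 and 119 CPM against 85.5 and 91.6 CPM and fell by 0.38 (edgeR adjusted p = 3.69e-05). Sema4b went the other way, with 28.5 and 28.2 CPM against 34.3 and 32.4 CPM and a log2 fold change of 0.24 (edgeR adjusted p = 0.0206). Sema4a, Sema4c and Sema4f did not pass. Of classes 6 and 7, Sema6d, a membrane-bound ligand of A plexins, had 18.6 and 19.2 CPM against 14.9 and 15.8 CPM and fell by 0.30 (edgeR adjusted p = 0.0209), while Sema6a, Sema6b, Sema6c and Sema7a had log2 fold changes from -0.24 to 0.00 and did not pass.

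The B plexins rose while their ligand Sema4d fell. Plxnb2, a receptor of class 4 semaphorins, had 243 and 260 CPM in wild-type and 352 and 346 CPM in Foxn3KO. The groups were far apart compared with the gap within either. The log2 fold change was 0.47 (SE 0.044, edgeR adjusted p = 2.78e-07). Plxnb1 had 239 and 249 CPM against 273 and 278 CPM, a smaller log2 fold change of 0.17 (edgeR adjusted p = 0.00648). Summed over both B plexins, the level per length was 56.1 and 59.5 FPKM in wild-type and 73.8 and 73.7 FPKM in Foxn3KO, 27.6% higher. The ratio of Sema4d to Plxnb2 in deposited FPKM was 0.549 and 0.512 in wild-type and 0.294 and 0.305 in Foxn3KO. Its ratio to Plxnb1 was 0.692 and 0.665 in wild-type and 0.471 in both Foxn3KO libraries. Plxna1, Plxna2, Plxna4, Plxnc1 and Plxnd1 had log2 fold changes from -0.02 to 0.08 and did not pass.

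The promoters of the B plexins and of Sema4d are shown because receptor and ligand moved in opposite directions. RefSeq windows (build GRCm38.p6) of the 250 bases before a start were found for 55 of the 65 members, 71 windows in all. The submitters' processing notes name build mm39, so these coordinates are not those of the deposited table. Capitals mark the searched letters, read on both strands. GTAAACA is the core sequence of most forkhead proteins. A common variant of it is ATAAACA. Some forkhead proteins also bind the unrelated letters GACGC. Rfx factors of cilia genes bind the X-box, of which GTTGCCA is a part, and the full X-box motif was searched as well. The Plxnb1 window is chr9:109095186-109095435 on the plus strand, the Plxnb2 window chr15:89180789-89181038 on the minus strand, and the Sema4d window chr13:51756684-51756933 on the minus strand.
Plxnb1: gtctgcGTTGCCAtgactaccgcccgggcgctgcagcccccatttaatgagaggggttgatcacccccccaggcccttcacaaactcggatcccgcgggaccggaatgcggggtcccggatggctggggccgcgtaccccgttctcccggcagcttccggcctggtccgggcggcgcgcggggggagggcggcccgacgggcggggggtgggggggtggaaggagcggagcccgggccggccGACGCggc
Plxnb2: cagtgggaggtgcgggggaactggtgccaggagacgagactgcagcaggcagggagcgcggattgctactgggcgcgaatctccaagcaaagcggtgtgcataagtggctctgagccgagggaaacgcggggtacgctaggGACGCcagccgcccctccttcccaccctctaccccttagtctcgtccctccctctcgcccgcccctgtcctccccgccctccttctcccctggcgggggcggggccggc
Sema4d: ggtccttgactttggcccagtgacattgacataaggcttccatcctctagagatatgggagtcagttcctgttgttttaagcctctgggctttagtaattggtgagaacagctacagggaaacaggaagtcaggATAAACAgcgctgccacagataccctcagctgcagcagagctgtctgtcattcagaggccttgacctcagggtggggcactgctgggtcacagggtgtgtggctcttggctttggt

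In the Plxnb1 window GTTGCCA began 244 bases and GACGC 8 bases before the start, in the Plxnb2 window GACGC began 109 bases before it, and in this Sema4d window ATAAACA began 116 bases before it. Neither of the other 2 Sema4d windows held any of the letters, nor did the other Plxnb2 window. The window of Slit2, also looked at, held none. Only windows with a match are printed. Across the table of 32851 windows, GACGC was found in 22.6%, against 21 of the 71 member windows (29.6%). GTAAACA was found in 3.17% of all windows and in 0 of the members' windows, ATAAACA in 4.16% and 2, GTTGCCA in 3.66% and 2, and the full X-box in 0.374% and 0. These matches describe letters in the windows only.

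Of the neuropilins, the semaphorin co-receptors, Nrp2 had 16.3 and 18.0 CPM in wild-type and 20.3 and 20.8 CPM in Foxn3KO. Its log2 fold change was 0.26 (edgeR adjusted p = 0.0418), close to the threshold. Nrp1 had 19.8 and 21.2 CPM against 19.2 and 18.8 CPM, a log2 fold change of -0.11 with a 95% interval from -0.29 to 0.07 (edgeR adjusted p = 0.39).

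**Figure D2:**
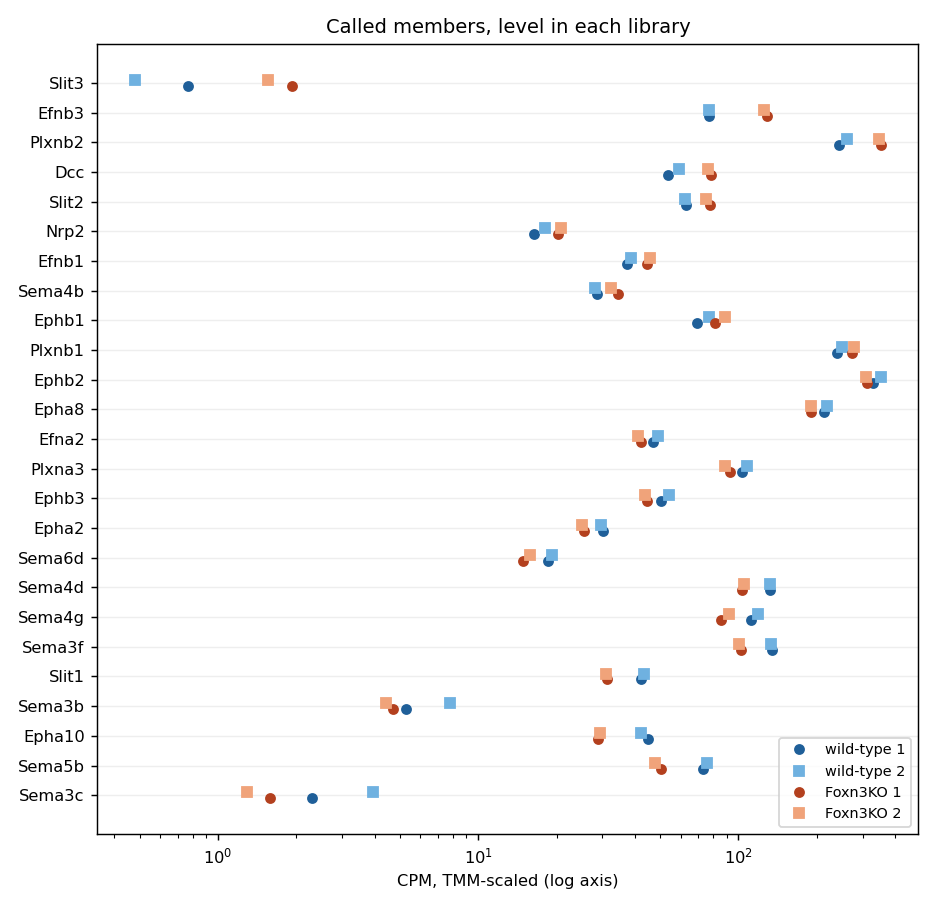
CPM of the 25 members that passed the test, 1 row per gene, on a log axis, with a point for each of the 4 libraries. The genes run from Slit3 at the top, highest in Foxn3KO relative to wild-type, to Sema3c at the bottom, and in every row the Foxn3KO points lie on the same side of the wild-type points.

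Of the 3 B ephrins, the transmembrane ephrins, Efnb3 and Efnb1 were higher in Foxn3KO and Efnb2 did not pass. Efnb3, a midline repellent in the nervous system, had 76.9 CPM in both wild-type libraries and 129 and 125 CPM in Foxn3KO. The replicates differed by far less than the genotypes. The log2 fold change was 0.72 (SE 0.048, edgeR adjusted p = 2.48e-09), a 1.65-fold rise and the smallest adjusted p among the members. Per length, Efnb3 and Efnb2 were close in wild-type, with a ratio of 1.12 and 1.29, and the ratio was 1.84 and 1.75 in Foxn3KO.

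Efnb1, which marks dorsal retina in the dorsoventral map, had 37.3 and 38.6 CPM in wild-type and 44.4 and 45.8 CPM in Foxn3KO with a log2 fold change of 0.25 (edgeR adjusted p = 0.0073). Efnb2, the other dorsal B ephrin, had 148 and 129 CPM against 151 and 154 CPM. Its log2 fold change of 0.14 had a 95% interval from 0.02 to 0.26 and did not pass (edgeR adjusted p = 0.0875), and wild-type replicate 1 lay closer to the Foxn3KO libraries than to the other wild-type library. The 3 B ephrins together had 56.2 and 54.0 FPKM in wild-type and 75.0 and 74.9 FPKM in Foxn3KO, 36.0% more.

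Among the A ephrins, which are tethered to the membrane by a lipid anchor, only Efna2 passed, with 46.9 and 49.1 CPM against 42.1 and 41.0 CPM and a log2 fold change of -0.21 (edgeR adjusted p = 0.0205). Efna5, a main ligand of the nasotemporal map, had 35.2 and 38.8 CPM against 35.6 CPM in both Foxn3KO libraries (log2 fold change -0.06, 95% interval from -0.20 to 0.09, edgeR adjusted p = 0.612). Efna1, with 2.62 and 2.83 CPM against 1.85 and 1.92 CPM, had the widest difference among the ligands and receptors that did not pass (log2 fold change -0.53, edgeR adjusted p = 0.109). Efna3 and Efna4 had log2 fold changes of -0.07 and 0.01.

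Eph receptors, the tyrosine kinases that bind ephrins, counted 5 lower and 1 higher of 13 (46.2%, beside 21.9% of all tested genes). Epha10, an Eph receptor with an altered kinase domain, changed most. It had 44.9 and 42.2 CPM in wild-type and 28.8 and 29.3 CPM in Foxn3KO, with a wide gap between the groups. This was a log2 fold change of -0.58 (SE 0.066, edgeR adjusted p = 3.21e-06). Epha8, the member with the highest level per length in wild-type, had 213 and 219 CPM against 190 and 191 CPM and fell by 0.18 (edgeR adjusted p = 0.00475). Epha2 fell by 0.24 (edgeR adjusted p = 0.0194).

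Epha5, the receptor that forms the nasotemporal gradient of mouse ganglion cells, had 153 and 161 CPM in wild-type and 165 and 164 CPM in Foxn3KO. Its log2 fold change was 0.07, with a 95% interval from -0.03 to 0.16 (edgeR adjusted p = 0.321). Epha4, a receptor of both ephrin classes, had 37.7 and 38.9 CPM against 38.6 and 35.0 CPM, and the groups overlapped (log2 fold change -0.06, 95% interval from -0.20 to 0.08, edgeR adjusted p = 0.591). Epha3, Epha6 and Epha7 had log2 fold changes of 0.13, -0.12 and 0.06 and did not pass.

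The EphB receptors went in both directions. Ephb1, the receptor that turns ventrotemporal axons back at the optic chiasm, had 69.0 and 76.8 CPM in wild-type and 80.9 and 88.5 CPM in Foxn3KO. The groups lay next to each other without overlap, and the log2 fold change was 0.22 (edgeR adjusted p = 0.0163). Without wild-type replicate 1 this was 0.14 (edgeR adjusted p = 0.036), and without Foxn3KO replicate 2 it was 0.15 (edgeR adjusted p = 0.234). Ephb2, a receptor graded towards ventral retina, had 327 and 353 CPM against 312 and 309 CPM and a log2 fold change of -0.13 (edgeR adjusted p = 0.0408), which was -0.08 without wild-type replicate 2 (edgeR adjusted p = 0.0736). Ephb3, graded like Ephb2, had 50.6 and 53.8 CPM against 44.5 and 43.7 CPM and fell by 0.24 (edgeR adjusted p = 0.00656). Ephb4 and Ephb6 had log2 fold changes of -0.06 and -0.18 and did not pass. The ratio of the ligand Efnb3 to the receptor Ephb2 in deposited FPKM was 0.931 and 0.863 in wild-type and 1.64 and 1.60 in Foxn3KO.

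**Figure D3:**
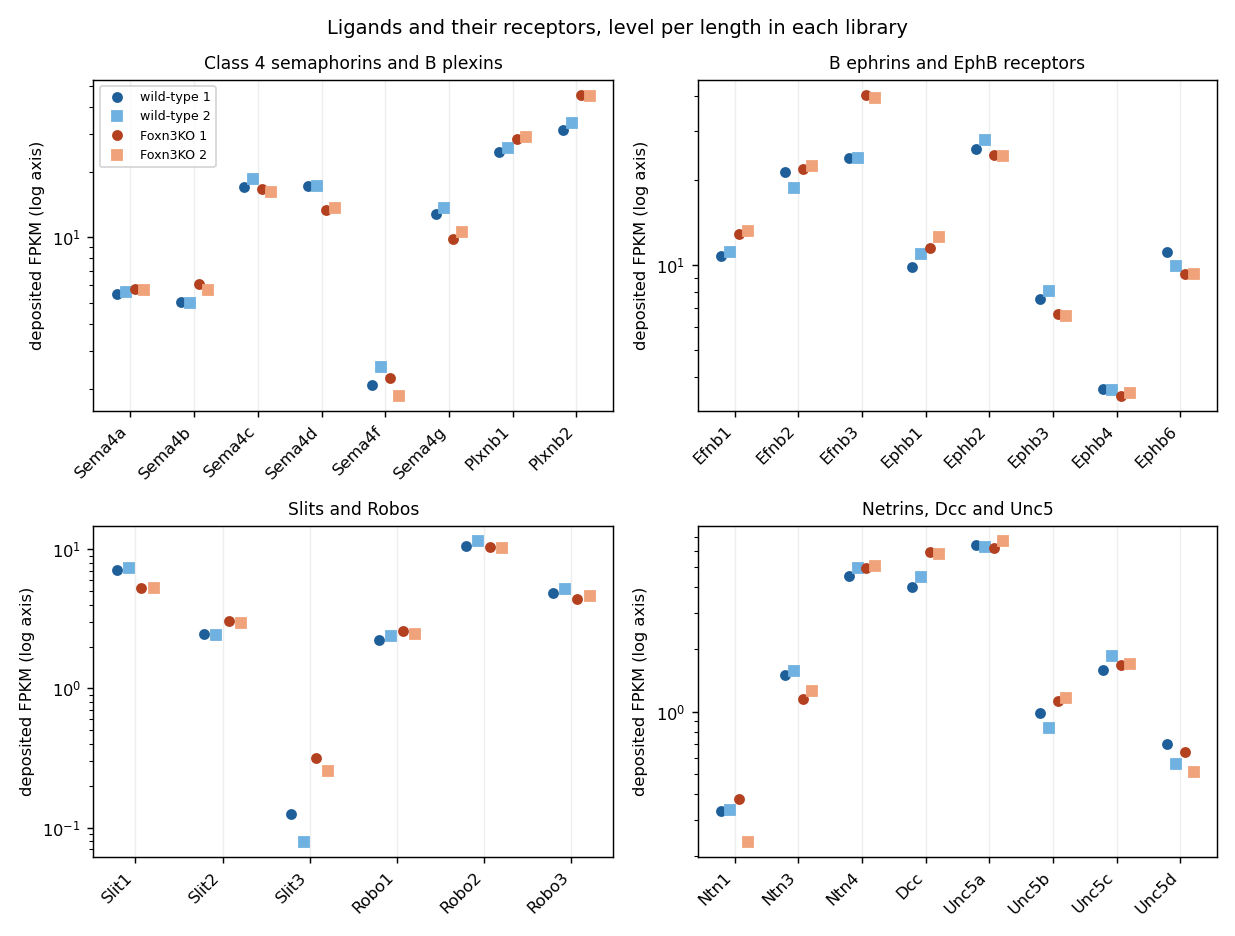
Deposited FPKM of ligands and their receptors on log axes, 1 point per library, in 4 panels for class 4 semaphorins with B plexins, B ephrins with EphB receptors, Slits with Robos, and netrins with Dcc and Unc5. The Foxn3KO points of Plxnb1, Plxnb2, Efnb3, Slit2 and Dcc lie above their wild-type points, and those of Sema4d, Sema4g and Slit1 lie below.

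All 3 Slits passed the test (beside 21.9% of all tested genes), and they did not share a direction. Slit1, which with Slit2 keeps retinal axons on course inside the eye and past the chiasm, had 42.1 and 43.3 CPM in wild-type and 31.1 CPM in both Foxn3KO libraries. It fell by 0.46 on the log2 scale (SE 0.064, edgeR adjusted p = 3.94e-05). Slit2 had 62.7 and 62.2 CPM against 78.0 and 75.2 CPM and rose by 0.29 (SE 0.052, edgeR adjusted p = 0.000496). Slit1 was the more abundant per length in every library, and its ratio to Slit2 in deposited FPKM was 2.88 and 2.99 in wild-type and 1.71 and 1.78 in Foxn3KO. Summed over the 3 Slits, the level was 9.66 and 9.81 FPKM against 8.62 and 8.44 FPKM.

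Slit3 was scarce, with 19 and 13 counts in wild-type and 56 and 35 in Foxn3KO. Every Foxn3KO library was above both wild-type libraries, and the log2 fold change was 1.51 with a wide error (SE 0.35, edgeR adjusted p = 0.00443). With wild-type replicate 2 left out it was 1.20, and with wild-type replicate 1 left out 1.88. The Robo receptors did not pass. Robo2, the main Slit receptor of retinal ganglion cells, had 181 and 196 CPM in wild-type and 177 and 175 CPM in Foxn3KO, a log2 fold change of -0.10 with a 95% interval from -0.20 to 0.00 (edgeR adjusted p = 0.151). Robo1 and Robo3 had log2 fold changes of 0.13 and -0.17.

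Dcc, the netrin receptor through which ganglion cell axons leave the eye, had 53.4 and 59.0 CPM in wild-type and 78.6 and 76.2 CPM in Foxn3KO. Both Foxn3KO libraries were above both wild-type libraries by more than the replicates differed. The log2 fold change was 0.46 (SE 0.058, edgeR adjusted p = 1.24e-05). The Unc5 receptors, which turn the response to netrin into repulsion, did not pass: Unc5a had 26.7 and 26.2 CPM against 25.8 and 28.0 CPM (log2 fold change 0.02, 95% interval from -0.14 to 0.18, edgeR adjusted p = 0.869), and Unc5b, Unc5c and Unc5d had log2 fold changes of 0.32, -0.03 and -0.12. The ratio of Dcc to Unc5a in deposited FPKM was 0.633 and 0.712 in wild-type and 0.966 and 0.860 in Foxn3KO.

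The netrins themselves were low. Ntn1, the attractant made at the optic disc, had 52 and 57 counts in wild-type and 69 and 33 in Foxn3KO. The groups overlapped, and at this depth the log2 fold change of -0.09 had a 95% interval from -0.65 to 0.47 (edgeR adjusted p = 0.845). Ntn4, the netrin with the highest level per length (4.88 FPKM), had 17.0 and 18.5 CPM against 18.6 and 19.1 CPM (log2 fold change 0.09, edgeR adjusted p = 0.532). Ntn3 had a log2 fold change of -0.36 with a 95% interval from -0.65 to -0.07 (edgeR adjusted p = 0.068). A list of 6 markers of astrocytes and the optic nerve head, where Ntn1 is made, summed to 54.4 and 51.0 CPM in wild-type. In Foxn3KO the list summed to 40.9 and 42.2 CPM, with 1 higher and 1 lower (33.3%, beside 21.9% of all tested genes). The lower one was Gfap, with 32.0 and 28.0 CPM against 14.6 and 15.1 CPM, and the other 5 markers summed to 22.5 and 22.9 CPM in wild-type and 26.4 and 27.1 CPM in Foxn3KO. The part of these cells in the netrin values was not tested.

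The order of the members by level per length differed between the genotypes. In wild-type, Epha8 led with 44.9 and 46.4 FPKM, followed by Plxnb2 with 31.3 and 33.6 FPKM. Ephb2, Sema3f, Plxnb1 and Efnb3 came next, close together between 24.0 and 27.9 FPKM. In Foxn3KO, Plxnb2 led with 45.5 and 44.7 FPKM. Epha8 (40.2 and 40.4 FPKM) and Efnb3 (40.3 and 39.2 FPKM) overlapped behind it, and Sema3f was at 19.7 and 19.3 FPKM. Efna2 was above Efnb2 in both wild-type libraries and below it in both Foxn3KO libraries. Over all 4 libraries, the leading members of the other families were Robo2 (10.7 FPKM), Unc5a (6.38 FPKM), Slit1 (6.21 FPKM), Ntn4 and Nrp1 (2.01 FPKM).

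The tested genes around the members were also looked at by name. The 25 members lie on 14 chromosomes. Efnb3 is next to Dnah2, an axonemal dynein gene on the same strand, which was higher in Foxn3KO with a log2 fold change of 1.62 (edgeR adjusted p = 2.44e-11), and Dcc is next to AC134546.1, with 1.58 (edgeR adjusted p = 0.0152). No other member that passed had a neighbour changed by 2-fold or more. This made 2 of the 25 members, each with neighbours on both sides. Of all tested genes 3.28% changed by that much, a share per gene and not per member. Plxnb1 overlaps Gm7628, the only overlap with another tested gene among the 25. The use of strand in counting was not given in the sources used here. Efnb1 and Plxna3 are on the X chromosome. Without wild-type replicate 1, the library with Xist, they still passed, with log2 fold changes of 0.22 (edgeR adjusted p = 0.00755) and -0.25 (edgeR adjusted p = 2.35e-06).

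Other guidance genes were read from 3 lists. Of 32 cell-surface partners and further guidance cues, 7 were higher and 7 lower (43.8%, beside 21.9% of all tested genes and 28.3% of those above 10 CPM), with a median log2 fold change of 0.04. Flrt1, a membrane protein whose family binds Unc5 receptors, had 13.7 and 15.3 CPM in wild-type and 8.24 and 8.71 CPM in Foxn3KO with a log2 fold change of -0.78 (edgeR adjusted p = 5.08e-05). The receptor phosphatases Ptprd and Ptprf moved apart. Ptprd had 197 and 206 CPM against 164 and 167 CPM (log2 fold change -0.28, edgeR adjusted p = 0.000131), and Ptprf had 198 and 211 CPM against 245 and 251 CPM (log2 fold change 0.28, edgeR adjusted p = 0.000186).

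Of 52 effectors that act inside the growth cone, 11 were higher and 4 lower (28.8%, near the 28.3% of all genes above 10 CPM), with a median log2 fold change of 0.01. Ngef, the exchange factor ephexin that acts downstream of EphA receptors, rose most. It had 10.6 and 11.7 CPM in wild-type and 27.7 and 28.5 CPM in Foxn3KO, a 2.52-fold rise (log2 fold change 1.33, SE 0.088, edgeR adjusted p = 2.28e-09). Mical2, an enzyme that oxidises actin and related to the plexin effector Mical1, had 4.56 ± 0.621 CPM (SD, n = 2) against 9.96 ± 0.438 CPM (SD, n = 2) (log2 fold change 1.13, edgeR adjusted p = 1.29e-05). Dpysl2, the collapsin response mediator through which class 3 semaphorins act on microtubules, had 131 and 129 CPM against 167 and 165 CPM (log2 fold change 0.36, edgeR adjusted p = 1.03e-05).

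Of 20 genes of retinal position, 19 were tested, and 4 were higher and 6 lower (52.6%, beside the same backgrounds). Cyp1b1, Cyp26a1 and Aldh1a3, enzymes that handle retinoids, were lower. Cyp1b1 had 76.4 and 74.4 CPM in wild-type and 48.6 and 45.8 CPM in Foxn3KO (log2 fold change -0.68, edgeR adjusted p = 5.8e-08). Cyp26a1, which degrades retinoic acid, had 64.5 and 67.0 CPM against 43.8 and 43.4 CPM (log2 fold change -0.59). Aldh1a3, which makes it in ventral retina, had 86.5 and 100 CPM against 64.9 and 64.6 CPM (log2 fold change -0.53). In each of the 3 genes both Foxn3KO libraries were below both wild-type libraries.

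Some position genes are named here after their values were seen. Foxd1, a temporal factor, was higher with a log2 fold change of 0.39 (edgeR adjusted p = 0.00218), and Hmx1, a nasal factor, was lower with -0.36 (edgeR adjusted p = 2.65e-05). The dorsal factors went in both directions: Nr2f2 was higher with 0.46 (edgeR adjusted p = 5.65e-06), Tbx2 was lower with -0.13 (edgeR adjusted p = 0.0347), and Tbx3 had -0.13 and did not pass (edgeR adjusted p = 0.12). Aldh1a1, the dorsal enzyme, had 113 and 71.3 CPM against 146 and 141 CPM, and its log2 fold change of 0.65 changed to 0.35 when wild-type replicate 2 was left out and to 1.01 when wild-type replicate 1 was. In DESeq2 neither Aldh1a1 (adjusted p = 0.182) nor Tbx2 (adjusted p = 0.074) passed. The ventral factor Vax2, the dorsal factor Tbx5 and Zic2, the factor that turns on Ephb1, had log2 fold changes of -0.09, 0.05 and -0.10 and did not pass.

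**Figure D4:**
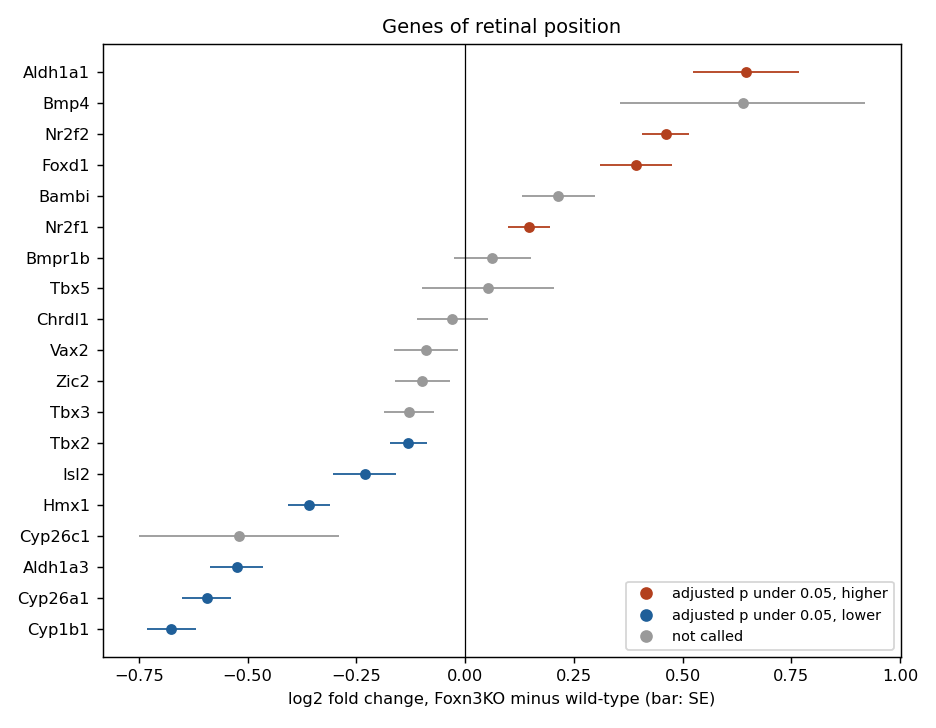
Log2 fold change, Foxn3KO minus wild-type, of the 19 tested genes of retinal position on the horizontal axis, with bars for the standard error. Cyp1b1, Cyp26a1 and Aldh1a3 are the lowest that passed, and Aldh1a1, Nr2f2, Foxd1 and Nr2f1 are those that passed on the higher side.

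Marker genes of cells that make guidance molecules moved with genotype in some lists. The 20 retinal ganglion cell markers summed to 3358 and 3592 CPM in wild-type and 3793 and 3791 CPM in Foxn3KO. Of them 6 were higher and 1 was lower (35%, beside 21.9% of all tested genes and 28.3% of those above 10 CPM). The 6 were Tubb3, Elavl3, Elavl4, Gap43, Stmn2 and Ebf3, most of which other neurons also express, and Isl1 was lower. Pou4f1, Pou4f2, Pou4f3 and Rbpms, markers more particular to ganglion cells, had log2 fold changes from -0.07 to 0.10 and did not pass. The 12 lens markers in the table summed to 8.39 and 77.7 CPM in wild-type and 317 and 318 CPM in Foxn3KO. Of the 11 tested, 10 were higher (90.9%), and Crygs was at 0 in wild-type replicate 1. Of 13 endothelial markers 2 were higher, Pecam1 and Tek (15.4%), both at low levels. Log2 fold changes were positive in 8 and negative in 5, with a median of 0.31. The 13 summed to 392 and 405 CPM in wild-type and 389 and 380 CPM in Foxn3KO, most of it Kdr. Kdr had 359 and 373 CPM against 354 and 347 CPM and did not pass. The 10 microglia markers summed to 24.7 and 25.1 CPM against 29.2 and 30.2 CPM, and none passed the edgeR test. The 6 muscle markers in the table summed to 8.51 and 7.07 CPM against 4.98 and 5.49 CPM. Of the 5 tested, 2 were lower (40%), and Actc1 was at 0 in a library. The part of these cells in the members' values was not tested.

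Leaving out each library in turn kept the sign of all 25 members. The 11 members Dcc, Epha10, Efnb3, Plxnb2, Sema3f, Sema4d, Sema4g, Sema5b, Slit1, Slit2 and Slit3 passed without each of the 4 libraries and in every other setting tried. Without Foxn3KO replicate 1, 16 members passed (background 13.1%), and without Foxn3KO replicate 2, 12 passed (background 13%). Epha2, Epha8, Ephb2, Efna2, Nrp2, Plxnb1, Sema3b, Sema4b and Sema6d were lost in both of these fits, and Ephb1, Ephb3, Efnb1 and Plxna3 without Foxn3KO replicate 2. Without wild-type replicate 1, 31 passed (background 24.3%) and Nrp2 was lost. Without wild-type replicate 2, 25 passed (background 28.6%) and Ephb2, Sema3b and Sema3c were lost. The authors' deposited table calls 18 members at an adjusted p under 0.05, 8 higher and 10 lower, all among the 25 and without Epha2, Ephb2, Efna2, Nrp2, Sema3b, Sema4b and Sema6d, beside 16% of the genes to which it gives an adjusted p. With 4 libraries and other settings, 25 members passed with RLE size factors (background 22%), without a filter (20.9%), with at least 10 counts in every library (24%) and with the earlier edgeR fit (21.6%), and 24 with limma-voom (21.9%). Total count scaling gave 27 (23%), the replicate number as a block 27 (24.4%) and an adjusted p under 0.1 gave 32 (28.5%).

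**Figure D5:**
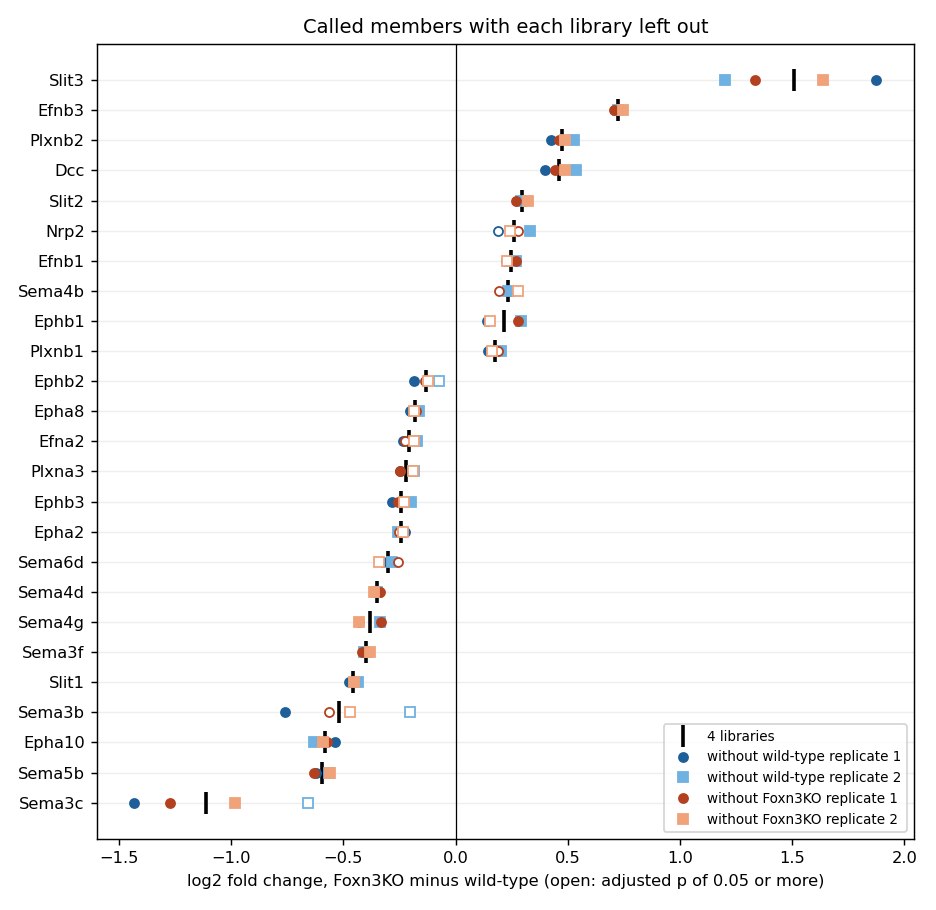
Log2 fold change of the 25 members that passed, Foxn3KO minus wild-type, with all 4 libraries (bar) and with each library left out (points), where open points mark an adjusted p of 0.05 or more. No point crosses 0, and the widest ranges are those of Slit3, Sema3b and Sema3c.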

How the data were processed

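RNA sequencing libraries of 4 E19 mouse retinas, 2 wild-type and 2 Foxn3KO by their labels, were compared. The authors deposited a single table with whole-number counts per gene and library and with FPKM values, which served here for levels per length. A mean signal per gene, log2 fold changes, p-values and adjusted p-values were also deposited by the authors; the submitters' processing notes name DESeq2 and mm39. Per the labels' protocols, libraries were made with a directional kit and adaptors with molecular identifiers. The aligner, the annotation and the use of strand and of these identifiers in counting are not given in the sources used here.

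Of 18471 genes, 17300 passed the low-count filter filterByExpr. A two-sided edgeR quasi-likelihood test (version 4.0.16, R 4.3.3) with TMM scaling and no term but genotype was run, and Benjamini-Hochberg adjustment covered every gene tested. A gene that passed, rose, fell or was called higher or lower had an adjusted p under 0.05. Standard errors were computed from fold change and F, and 95% intervals from the t distribution of the fit. The fit borrows variance from other genes, so p-values and intervals do not rest on the 4 libraries of a gene alone. CPM use TMM-scaled library sizes. Ratios between members restate the changes of their genes and were not tested. Total counts of 22543531 to 29360129 mean that 3 counts correspond to 0.102 to 0.133 CPM, a limit that covers counting error only.

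The members and gene lists were chosen with earlier results of these data known, so no list was tested as a set. Values were given in full for members that passed with a log2 fold change of at least 0.3 in size, the member of each family with the highest level per length, Epha5, Epha4, Ephb2, Ephb1, Efna5, Efnb1, Efnb2, Nrp1, Robo2, Slit1, Ntn1 and Dcc, and the 3 genes of smallest p among those that passed in each other guidance list; other genes with values were singled out after these were seen. A gene of the position list is not reported here. Marker lists were for retinal core, ganglion cells, endothelium, mural cells and mesenchyme, lens, pigment epithelium, astrocytes and optic nerve head, microglia, muscle and blood. The 11 mural and mesenchymal markers summed to 24.0 and 31.0 CPM in wild-type and 29.3 and 31.6 CPM in Foxn3KO, and the 6 blood markers to 30.1 and 78.0 CPM against 50.8 and 53.5 CPM.

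Replicates were compared first: chi-square averaged 10.12 per gene for the wild-type pair and 1.885 for the Foxn3KO pair. The wild-type average includes Xist, at 83073 and 17 counts, and other sex-linked genes, and was not computed without them. Both averages were above sampling noise, so each library was counted as a replicate. As alternatives, scaling was by RLE factors or total counts, the filter was dropped or set to 10 counts in each library, and the tool was DESeq2 1.42.0, limma-voom (limma 3.58.1) or the earlier edgeR fit. A threshold of 0.1, the replicate number as a block, and leaving out each library were also tried. Restricting the count to members with a mean of at least 10 CPM was added after seeing the data. Neighbouring genes came from a GENCODE annotation of an earlier build and are given by name only. Figures were drawn with matplotlib 3.10.9.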

Additional observations from a re-analysis of the deposited data

How the results depend on the processing

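With 2 embryos a group, 1 library can decide a call. The count of 25 members that passed ranged from 12 to 31 with a library left out (12, 5 higher and 7 lower, without Foxn3KO replicate 2; 16 without Foxn3KO replicate 1; 25 without wild-type replicate 2; 31, 11 higher and 20 lower, without wild-type replicate 1), and that of 39 other guidance genes from 21 to 50 (21 without Foxn3KO replicate 2, 22 without Foxn3KO replicate 1). Those fits assume that the lone library varies like the other group. The replicates differed more in wild-type than in Foxn3KO, by a chi-square average that includes sex-linked genes. Over all genes the background was 13%, 13.1%, 28.6% and 24.3% in that order. In the other settings 18 (DESeq2, 8 higher and 10 lower, background 16%) to 32 (adjusted p under 0.1) members passed, and total count scaling gave 9 higher and 18 lower. With the replicate number as a block, 27 members passed, all 25 among them, with Ephb6 and Efnb2 added. The block changed no other member's call. No label says that the numbers pair the embryos. The correlation of replicate differences between groups was -0.008251. This value cannot decide the question, since the wild-type replicates also differed in sex-linked RNA. None of the 25 changed sign in any setting. Of members that did not pass, signs turned under total count scaling in Efna4 (-0.0074), Plxna4 (-0.012), Plxnc1 (-0.017) and Sema6a (-0.020), and with the earlier edgeR fit in Sema6a (-0.00013). With a library left out, log2 fold changes crossed 0 in Efna3 (-0.13 to 0.018), Efna4 (-0.13 to 0.14), Efna5 (-0.12 to 0.015), Epha4 (-0.13 to 0.012), Epha6 (-0.44 to 0.10), Epha7 (-0.024 to 0.14), Ntn1 (-0.51 to 0.18), Plxna1 (-0.022 to 0.19), Plxna2 (-0.062 to 0.019), Plxna4 (-0.014 to 0.033), Plxnc1 (-0.016 to 0.024), Plxnd1 (-0.035 to 0.021), Sema3g (-0.12 to 0.21), Sema6a (-0.081 to 0.088), Tbx5 (-0.11 to 0.22), Unc5a (-0.036 to 0.085), Unc5c (-0.13 to 0.092) and Unc5d (-0.30 to 0.062). The cause was not tested. Low counts limit Ntn1, Slit3 and Sema3c.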
